A study of Mus musculus with 6 samples.

Results

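The SOCS family holds 8 genes, Cish and Socs1 to Socs7, which encode proteins that damp cytokine signals. They were taken from the deposited expression table as every row whose symbol, ignoring case, was one of these names. That gave 11 transcript rows for 8 genes, of 29868 rows and 23594 genes or unmerged rows in all, and the rows of a gene were summed. Each family protein carries an SH2 domain, which holds phosphorylated receptors or kinases, and a SOCS box, which recruits a ubiquitin ligase. Cytokines signal through receptors, JAK kinases and STAT transcription factors, and several SOCS genes are themselves turned on by STATs, so that the protein made feeds back on the pathway that induced it. In T cells CIS and SOCS1 restrain cytokines that use the common gamma chain, SOCS1 is the main brake on interferon gamma, and SOCS3 acts on receptors of the gp130 type.

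The 6 libraries came from WT C57/BL6 mouse CD4 T cells, labelled Th0, meaning activated without polarising cytokines. All were sorted as naive cells, activated by bound antibodies against CD3 and CD28 (each 10 ug/ml), and kept with antibodies that block IL-4 and IFN-gamma, both inducers of SOCS genes. After 36 hours 3 cultures received the empty retrovirus MigR1, which carries GFP, and 3 received MigR1 with the cDNA of Blimp-1, a transcriptional repressor encoded by Prdm1. GFP+ cells were sorted 2 days later, so both groups hold transduced cells and the Blimp-1 group is a model of forced expression from a vector. The labels speak of independent biological replicates, but not of the animals behind them, their age or their sex, and one label gives the culture as 3 days. In bulk RNA a smaller share of expressing cells and less RNA per cell cannot be told apart.

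Values are FPKM, which scale reads to transcript length and library size, so levels of different genes can be set side by side. Estimated from the smallest steps in the values, the empty vector libraries had about 17.02 to 37.9 M reads each and the Blimp-1 libraries 34.3 to 46.3 M. Prdm1 was at 0.996, 2.03 and 1.38 FPKM in empty vector libraries and at 9.91, 12.8 and 9.45 with Blimp-1, in the direction the labels give (limma adjusted p = 0.0663, or 0.00983 with the replicate block described below). All 6 T cell markers were present. Their summed level was 1520 to 1880 FPKM in empty vector libraries and 1570 to 1740 with Blimp-1. The B cell, myeloid and dendritic lists summed to at most 5.72, 3.41 and 1.07 FPKM. Other lists were higher in their highest library, the NK cell list at 35.3 FPKM and the regulatory T cell list at 7.92. In the latter Ikzf4 was at 4.94 to 7.71 FPKM and Foxp3 at most at 0.837. Of the CD8 T cell markers, Cd8b1 was at 7.01 to 10.9 FPKM and Cd8a at most at 0.169. Empty vector replicate 3 stood apart from the other libraries on the first principal component (34.8 against -22.8 to 12.7, 51.4% of the variance). It also differed in markers, with the erythroid gene Hba-a1 at 9.82 FPKM against 0.126 to 1.49 elsewhere and the NK cell receptor gene Klrd1 at 3.16 against 12.7 to 30.4. Klrk1, another NK receptor gene, was at 0.158 FPKM there against 0.903 to 4.87 elsewhere, while Ncr1 was at 0 in every library. The part of these markers in the results below was not tested. Member results that rest on this library are given with and without it.

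The family had an abundant and a scarce set. In empty vector libraries Cish averaged 62.6 ± 46.1 FPKM, Socs3 47.7 ± 3.95, Socs2 46.7 ± 33.0 and Socs1 36.0 ± 26.8 (SD, n = 3 each), and these neighbours had overlapping ranges. Socs4 followed at 9.30 ± 1.91 FPKM, below every value of the 4 abundant genes, and Socs7, Socs6 and Socs5 came last at 4.17 ± 0.636, 3.45 ± 0.543 and 2.44 ± 0.779 FPKM (SD, n = 3 each). Among all 11031 features tested, 87.8% had a lower mean than Cish, and 14.7% had a lower mean than Socs5. With Blimp-1 the order was Socs3 at 45.4 ± 9.03, Cish at 39.3 ± 9.87, Socs2 at 30.6 ± 9.68, Socs1 at 14.1 ± 1.08 and Socs4 at 9.77 ± 1.65 FPKM (SD, n = 3 each). Here Socs1 no longer overlapped Socs2, and Socs3 and Cish still overlapped. The scarce genes Socs7, Socs6 and Socs5 kept their order at 5.41 ± 0.476, 3.82 ± 0.673 and 3.11 ± 0.841 FPKM (SD, n = 3 each), with Socs6 and Socs5 overlapping. At the lowest value, in empty vector replicate 3, Socs6 and Socs5 rested on about 140.3 and 142.9 reads, which alone gives a counting error of about 8.4%.

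**Figure D1:**
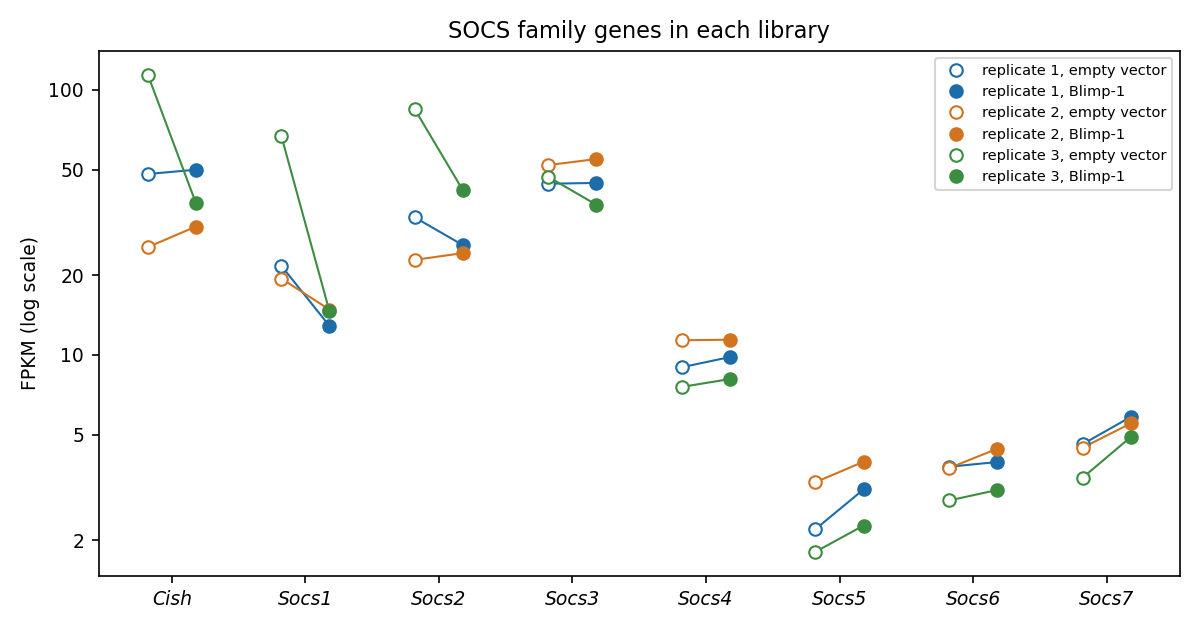
FPKM on a log scale of each SOCS family gene in each library, open circles for the empty vector and filled circles for Blimp-1, with lines joining libraries of the same replicate number. Cish, Socs1 and Socs2 are far above their other values in empty vector replicate 3, and Socs1 is lower and Socs7 higher in all 3 Blimp-1 libraries than in any empty vector library.

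The question asked of these genes was whether forced Blimp-1 changes their expression, since the series title sets Blimp-1 against genes that STAT5, the STAT activated by IL-2, controls. None of the 8 genes passed limma with Benjamini-Hochberg adjustment over all features, in a fit with the vector as its only term (adjusted p = 0.998 for each). That fit called 0% of all features higher and 0% lower, and 1.12% were at an unadjusted p below 0.05. The family's median log2 fold change was -0.01, the same as that of all features tested. With the replicate number as a block, which compares libraries of the same number, again none of the 8 passed, and over all features 1 was called higher and 1 lower (0.00907% each). Socs1, Socs5 and Socs7 were at a blocked, unadjusted limma p of 0.0221, 0.018 and 0.00573, as 19.9% of all features were below 0.05. The members did not behave alike, and in 2 of them, Socs1 and Socs7, the values of the Blimp-1 and empty vector libraries did not overlap. Over all features 2.32% were higher and 2.36% lower with Blimp-1 without overlap.

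Socs1 was lower with Blimp-1 in every comparison of libraries. It encodes the inhibitor that blocks JAK kinases directly through a short inhibitory region. Socs1 was at 21.7, 19.4 and 66.9 FPKM in empty vector replicates 1, 2 and 3. With Blimp-1 it was at 12.9, 14.8 and 14.6 FPKM. The highest Blimp-1 value was below the lowest empty vector value, a separation that 2.36% of all features showed in this direction. The ratio of the means was 0.392, and the log2 fold change was -1.07 (SE 0.43, 95% interval -2.07 to -0.06; limma unadjusted p = 0.0401). The blocked fit gave limma adjusted p = 0.199.

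Empty vector replicate 3 carried most of that difference. The log2 differences within replicates 1, 2 and 3 were -0.71, -0.37 and -2.12, and without replicate 3 of both vectors the ratio of the means was 0.674. The blocked fit on the remaining 4 libraries called Socs1 as lower (log2 fold change -0.54, SE 0.09, limma adjusted p = 0.00655), where 4.38% of all features were called lower and 3.08% higher. It was the only family member called there, and 24.6% of all features were at an unadjusted p below 0.05. With 2 pairs this fit has few residual degrees of freedom, so its SE rests largely on variance pooled over all features. Hba-a1, the erythroid gene, was lower in those libraries as well, at 1.15 and 1.11 FPKM against 0.331 and 0.126, and its part in the result was not tested. When replicate 1 or 2 was left out in the same way, the log2 fold changes were -1.24 and -1.42, and Socs1 did not pass (limma adjusted p = 0.712 and 0.144). Over its 21 alternatives the adjusted p of Socs1 ran from 0.00655 to 1.0.

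The table held a further Socs1 transcript that had no symbol, NM_001271603, matched to the gene by its RefSeq accession. Its values were 7.24, 3.82 and 15.3 FPKM in empty vector libraries and 8.29, 3.51 and 5.89 with Blimp-1, so that in replicate 1 it was higher with Blimp-1. With this row added Socs1 was at 28.9, 23.2 and 82.2 FPKM against 21.2, 18.3 and 20.5, and the vectors still did not overlap. The log2 fold change was then -0.90, and the blocked fit without replicate 3 gave -0.38 (limma adjusted p = 0.0129). The row's share of the gene's total was lowest in empty vector replicate 2, at 16.5%, and highest in Blimp-1 replicate 1, at 39.2%. How reads shared by the 2 transcripts were assigned before deposit is not given in the sources used here.

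Cish and Socs2 had overlapping vectors. Cish encodes CIS, which binds cytokine receptors at sites that STAT5 also uses. It was at 48.1, 25.5 and 114 FPKM in empty vector libraries. With Blimp-1 it was at 49.9, 30.5 and 37.4 FPKM. In replicates 1 and 2 the Blimp-1 library was thus slightly higher, with ratios of 1.04 and 1.20, and in replicate 3 it was far lower, with a ratio of 0.328. The log2 fold change over all 6 libraries was -0.43 (SE 0.49, 95% interval -1.58 to 0.72), and without replicate 3 the blocked fit gave 0.15 (SE 0.08, limma adjusted p = 0.241). The sign of the Cish difference therefore changed with that pair.

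Socs2 encodes a family member best known for restraining growth hormone signals. Its summed level was 33.0, 22.8 and 84.3 FPKM in empty vector libraries and 25.9, 24.2 and 41.8 with Blimp-1. Empty vector replicate 3 was the highest library and Blimp-1 replicate 3 the second, so both libraries of that number were high. The log2 fold change was -0.42 (SE 0.46, 95% interval -1.49 to 0.65), or -0.13 (limma adjusted p = 0.442) in the blocked fit without replicate 3. All 4 Socs2 transcripts were highest in empty vector replicate 3. The most abundant of them, NM_007706, made up 43.3% to 53.1% of the gene's total over the 6 libraries and was at 16.4, 9.89 and 38.0 FPKM in empty vector libraries and 13.8, 12.1 and 18.4 with Blimp-1. The gene's difference in replicate 3 was therefore spread over all 4 deposited rows. How reads shared by these transcripts were assigned is not given either, so the rows may not be independent measures.

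**Figure D2:**
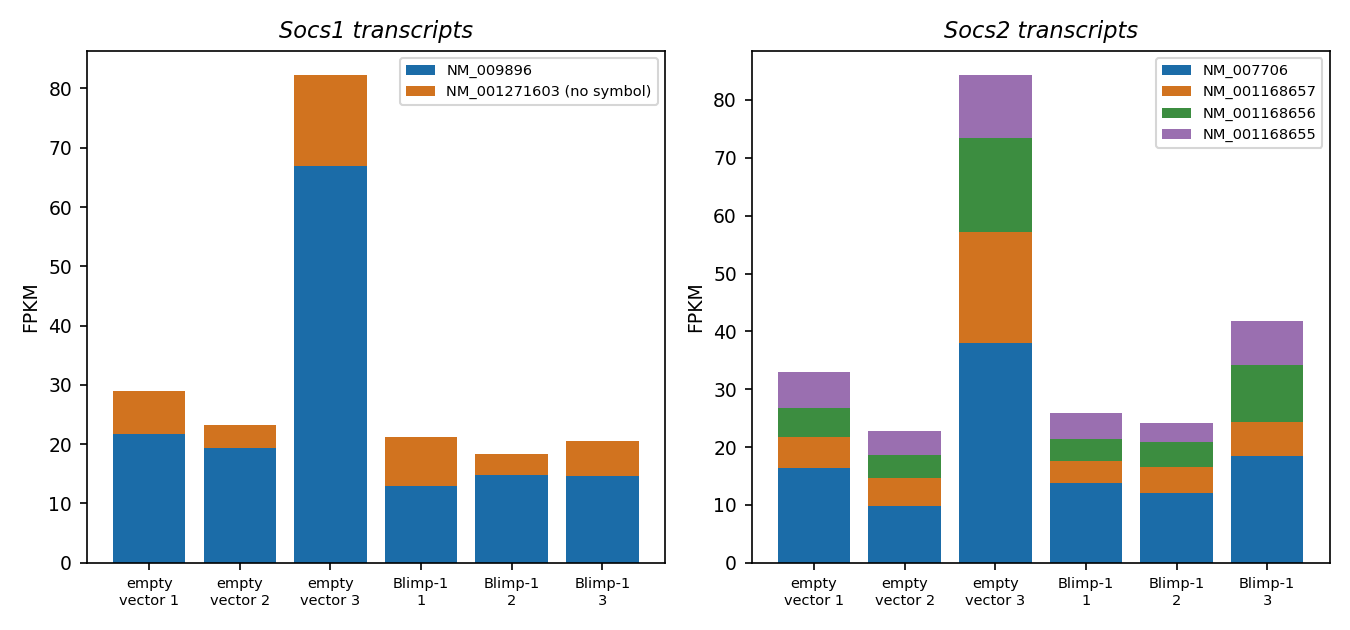
FPKM of each Socs1 (left) and Socs2 (right) transcript row stacked for the 6 libraries, with the Socs1 row that had no symbol in orange. Empty vector replicate 3 is the tallest bar for both genes, at 82.2 FPKM for Socs1 with both rows and 84.3 for Socs2, and each Socs2 transcript is highest there.

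Socs3, by contrast with the other abundant members, hardly differed between libraries. It encodes the inhibitor of IL-6 type receptors and, like SOCS1, has a region that blocks JAK kinases. Socs3 was at 44.2, 52.0 and 46.9 FPKM in empty vector libraries and at 44.5, 54.8 and 36.8 with Blimp-1. Its log2 fold change was -0.09 (SE 0.17, 95% interval -0.48 to 0.31), and the highest library was 1.49 times the lowest. For Cish, Socs1 and Socs2 that ratio was 4.48, 5.20 and 3.69. The coefficient of variation over the 6 libraries was 63.6%, 82.9% and 60.6% for Cish, Socs1 and Socs2, larger than for 98.7%, 99.5% and 98.4% of all features tested, and 13.7% for Socs3, near the median of 16.4%.

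Windows from 250 bases before to 50 after annotated transcript starts were available from RefSeq (build GRCm38.p6) for 4 members. They are shown for Cish, Socs1 and Socs3 because these abundant genes varied so differently. The windows were searched on both strands for TTCNNNGAA, the palindrome that STAT dimers bind, for GAAA followed by any 2 bases and GAAA again, an element of interferon regulatory factors, and for GTGAAAG, a core that Blimp-1 binds and that shares its GAAA with the interferon element. Each stretch below has 100 bases, 5′ to 3′ on the gene's strand, with matches in capitals.
Cish, chr9:107296579-107296678, plus strand: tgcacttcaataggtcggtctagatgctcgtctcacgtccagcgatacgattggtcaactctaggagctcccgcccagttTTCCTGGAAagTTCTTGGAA
Socs1, chr16:10785557-10785656, minus strand: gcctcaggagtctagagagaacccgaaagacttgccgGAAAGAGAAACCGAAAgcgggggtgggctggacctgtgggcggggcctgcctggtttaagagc
Socs3, chr11:117969457-117969556, minus strand: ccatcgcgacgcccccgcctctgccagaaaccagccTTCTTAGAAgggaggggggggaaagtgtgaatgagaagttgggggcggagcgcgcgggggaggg

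The Cish window held 2 STAT palindromes, TTCCTGGAA at bases 1 to 9 and TTCTTGGAA at bases 12 to 20 counted from the annotated start as base 1. A window with at least 1 such palindrome was found for 8.3% of 32851 annotated starts, and one with 2 or more for 0.457%. Socs3 had 1, TTCTTAGAA, from base -154 to -146. Socs1 had no STAT palindrome but 2 overlapping interferon elements between bases -83 and -68, and 3.44% of windows held at least 1 of these. The Blimp-1 core was in 4.24% of windows and in none of the 4 members' windows, which says only that these letters are not there. A match is a run of letters and not evidence of binding. Socs4 held none of the 3 motifs.

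**Figure D3:**
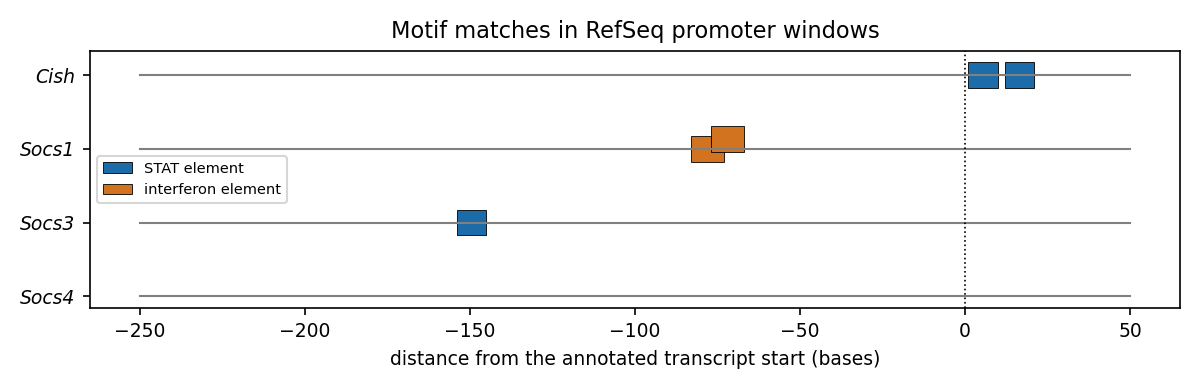
Position of motif matches in the RefSeq windows of 4 SOCS family genes, in bases from the annotated transcript start (dotted line), with STAT palindromes in blue and the overlapping interferon elements in orange. Cish has 2 STAT palindromes next to its start, Socs3 has 1 upstream, Socs1 has the interferon elements only and Socs4 has no match.

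The scarce members were higher with Blimp-1 within each pair, by amounts that did not pass the test. Socs7 encodes a protein that binds insulin receptor substrates, and it was the member whose vectors did not overlap in the upward direction, as for 2.32% of all features. Socs7 was at 4.60, 4.46 and 3.44 FPKM in empty vector libraries. With Blimp-1 it was at 5.83, 5.51 and 4.89 FPKM. The log2 fold change was 0.32 (SE 0.14, 95% interval -0.02 to 0.65; limma unadjusted p = 0.063), with differences of 0.29, 0.25 and 0.41 in replicates 1, 2 and 3. The blocked fit gave an interval of 0.14 to 0.50 and limma adjusted p = 0.165, so Socs7 did not pass. Without replicate 3 it gave 0.27 and limma adjusted p = 0.0714, the lowest of its 17 alternatives, which ran up to 1.0.

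Socs4 and Socs5 encode closely related members that have been linked to receptors of epidermal growth factor. Socs5 was at 2.2, 3.31 and 1.81 FPKM in empty vector libraries and at 3.11, 3.95 and 2.27 with Blimp-1 (log2 fold change 0.26, SE 0.22; limma adjusted p = 0.194 with the block). Socs4 was at 8.98, 11.3 and 7.57 FPKM against 9.81, 11.4 and 8.10 (log2 fold change 0.07, SE 0.18; limma adjusted p = 0.566 with the block). In both genes replicate 2 was highest and replicate 3 lowest with either vector. All 6 values of Socs4 ordered by replicate number before vector, while Socs5 in Blimp-1 replicate 3 was slightly above empty vector replicate 1. Socs6, which acts on receptor tyrosine kinases such as KIT, was at 3.78, 3.74 and 2.82 FPKM against 3.94, 4.42 and 3.09 (log2 fold change 0.11, SE 0.16; limma adjusted p = 0.419 with the block).

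**Figure D4:**
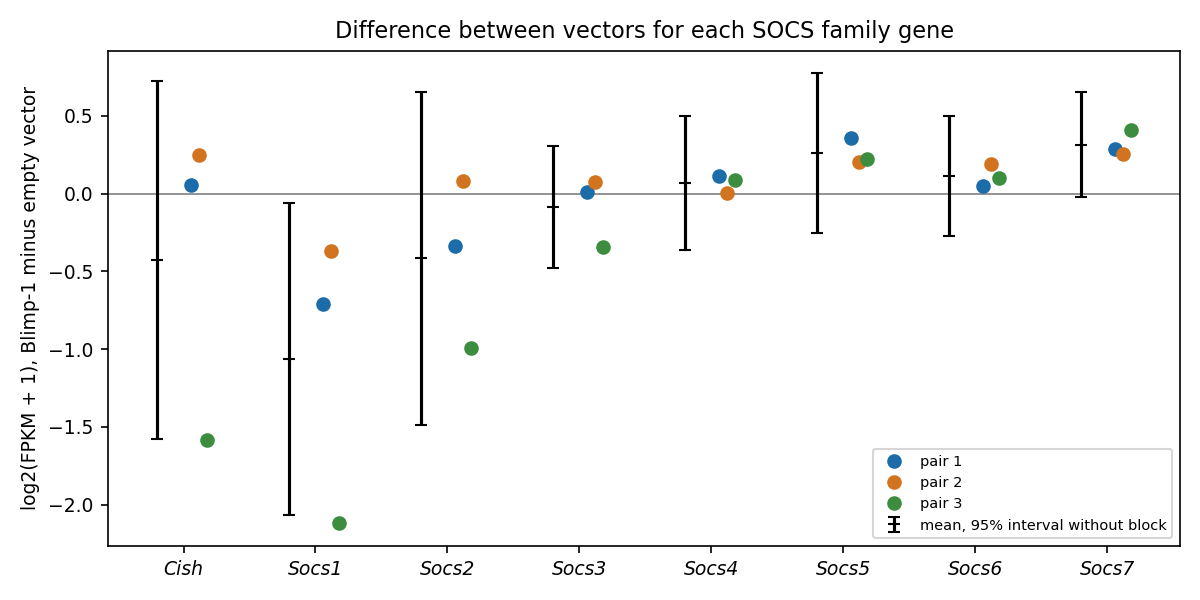
Difference of log2(FPKM + 1), Blimp-1 minus empty vector, for each SOCS family gene in replicate pairs 1, 2 and 3 (coloured points), with the mean and its 95% interval from limma without the block (black). The points of Socs1 are all below 0 and those of Socs4, Socs5, Socs6 and Socs7 all above it, while Cish, Socs2 and Socs3 have points on both sides.

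All 4 scarce members, Socs4 to Socs7, were higher with Blimp-1 in 3 of 3 pairs, and Socs1 was lower in 3 of 3, although the difference of Socs4 in replicate 2 was 0.007 on the log2 scale. Over all features 22.6% were higher and 22.9% lower in 3 of 3 pairs. These shares differed with transcript length. Among tested genes with transcripts of 6000 bases or more, 50.8% were higher in 3 of 3 pairs and 6.08% lower, while below 1000 bases 10.4% were higher and 39.9% lower. The median log2 fold change went from -0.10 below 1000 bases to 0.10 at 6000 bases or more. Socs4 and Socs7, at 6877 and 7015 bases, lay in the longest class, and Socs5, at 4648 bases, lay in the class from 4000 to 6000 bases, of which 33.3% were higher in 3 of 3 pairs. Socs6, at 2921 bases, lay in a class of which 16.1% were. The part of transcript length in these differences was not tested.

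Length went with replicate 3 of both vectors as well. Empty vector replicate 3 was at 0.745, 0.656, 0.75 and 0.758 times the mean of the other empty vector libraries for Socs4, Socs5, Socs6 and Socs7. Over all features 20.6% were below both other empty vector libraries and at most 0.8 times their mean, another limit set after the values had been seen, and 40.4% of genes at 6000 bases or more were. Being below both, by any amount, was found for 35.5%. Over tested genes the median of the empty vector ratio was 0.839 at 6000 bases or more and 0.918 from 4000 to 6000. It was 1.02 from 2000 to 3000 bases and 1.16 below 1000. For Blimp-1 replicate 3 against the mean of the other Blimp-1 libraries, medians in these classes were 0.85, 0.914, 0.986 and 1.11. Its ratio was 0.764, 0.643, 0.739 and 0.863 for Socs4, Socs5, Socs6 and Socs7. For Cish, Socs1, Socs2 and Socs3 it was 0.93, 1.06, 1.67 and 0.741. In empty vector replicate 3 the ratio was 3.10, 3.26 and 3.02 for Cish, Socs1 and Socs2, and 0.975 for Socs3. Of all features 1.12% were above both other empty vector libraries and at least 2.5 times their mean, a limit set after these ratios had been seen, and 1.09% of genes from 2000 to 3000 bases were. Socs1, at 2785 bases in GENCODE, spans 1729 bases in RefSeq, and 1.37% of genes from 1000 to 2000 bases were beyond this limit. In empty vector replicate 3, Cish, Socs1 and Socs2 thus stood much farther from 1 than the medians of their length classes.

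**Figure D5:**
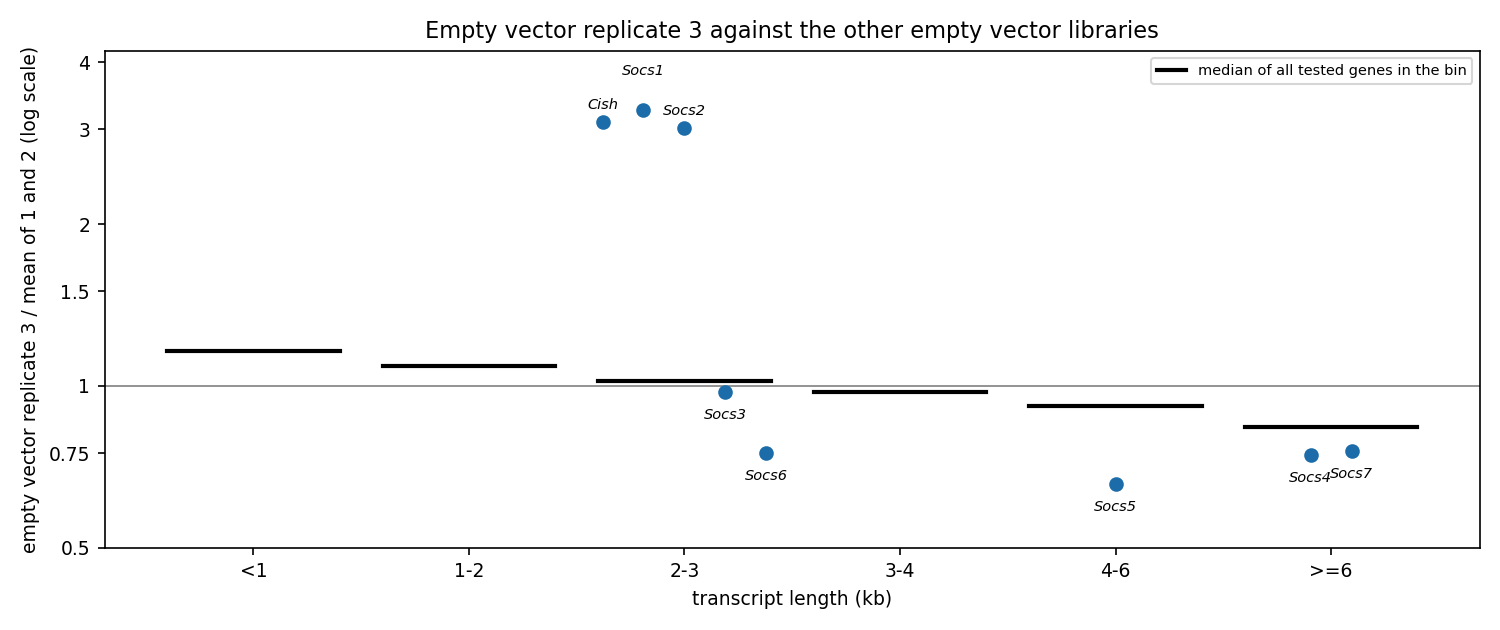
FPKM in empty vector replicate 3 divided by the mean of empty vector replicates 1 and 2 (log scale) for each SOCS family gene (points, spread sideways within a class), by transcript length class, with the median of all tested genes in each class (black lines). Medians go from 1.16 to 0.839 with length, while Cish, Socs1 and Socs2 lie at 3.02 to 3.26 and the other members below 1. The same medians for Blimp-1 replicate 3, not drawn, go from 1.11 to 0.85.

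The sum of the family's FPKM was 166.6, 142.6 and 327.9 in empty vector libraries and 156.0, 149.6 and 149.0 with Blimp-1. Empty vector replicate 3 was thus far above the other 5 libraries, which were close to each other, and Cish made up 34.8% of the sum there against 17.9% to 32.0% elsewhere. The share of Socs3 was lowest in that library, at 14.3%, and highest in Blimp-1 replicate 2, at 36.6%. Over the 6 libraries log2 levels of Cish, Socs1 and Socs2 correlated with each other at Pearson r of 0.80 to 0.88, and those of Socs4, Socs5 and Socs6 at 0.87 to 0.95. Between the 2 trios the correlations ran from -0.58 to -0.90. Socs7, in neither trio, was at 0.58, 0.72 and 0.77 with Socs4, Socs5 and Socs6. With Cish, Socs1 and Socs2 it was at -0.62, -0.94 and -0.79. These are descriptions over n = 6 libraries in which 1 library is extreme.

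Genes most like each member over the 6 libraries were sought among 8145 others at a mean of 5 FPKM or more. For Cish these were Gars, a tRNA synthetase gene (r = 0.99), Tob2, an antiproliferative gene (r = 0.99), and Mrpl2, which encodes a mitochondrial ribosomal protein (r = 0.99). Gars varied far less than Cish, between 39.5 and 50.3 FPKM. For Socs1 they were Endog, a mitochondrial nuclease gene, Clns1a and Arhgdia (r = 0.999, 0.997 and 0.996). These too varied far less than Socs1, at 4.97 to 8.365, 11.2 to 13.99 and 118.4 to 181.3 FPKM. For Socs2 they were Atp5g3, which encodes a subunit of ATP synthase, Gtf2h5 and Cdk4, a cell cycle kinase gene (r = 0.998, 0.997 and 0.997). Every gene named here for Cish, Socs1 and Socs2 was highest in empty vector replicate 3, as were these members. How far r leaned on that library was not tested. Socs3 was most like Smg8, Tmc6 and Rbm4 (r = 0.998, 0.995 and 0.986), and Socs4 most like the energy sensor kinase gene Prkaa1, Ddx24 and Brd2 (r = 0.998, 0.998 and 0.997). An r of at least 0.95 was reached by 0.933% of genes for Cish, 1.18% for Socs1, 3.76% for Socs2, 0.319% for Socs3 and 3.94% for Socs4.

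SOCS proteins work with other genes, which were followed as lists chosen with earlier results of these data known. None of their tested members passed limma on all 6 libraries, with or without the block. Of 9 genes of the ubiquitin ligase that the SOCS box recruits, all were tested, with a median log2 fold change of -0.09 against -0.01 for all features. The most abundant was Elob, which encodes elongin B, at 206.7, 196.3 and 344.6 FPKM in empty vector libraries and 175.4, 159.4 and 220.8 with Blimp-1. Elob was called as lower in the blocked fit without replicate 3 (log2 fold change -0.27, limma adjusted p = 0.0287), in which 4.38% of all features were called lower and 3.08% higher. Nedd8, the ubiquitin-like activator of cullins, was at 113.5, 107.6 and 158.2 FPKM against 99.7, 98.2 and 115.3. Both were highest in empty vector replicate 3 and lower with Blimp-1 in 3 of 3 pairs. In all, 5 of the 9 genes were lower in 3 of 3 pairs, against 22.9% of all features. As given above, that share differed with transcript length, from 39.9% below 1000 bases to 6.08% at 6000 bases or more. The part of length in the counts of this and the following lists was not tested.

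Of 27 other genes with a SOCS box, 13 were tested and the rest were too low. The tested ones had a median of -0.01, 4 higher and 2 lower in 3 of 3 pairs, and in none did the vectors separate. Wsb1, the most abundant, was at 37.3, 29.3 and 41.3 FPKM in empty vector libraries and at 43.97, 34.95 and 36.06 with Blimp-1. Spsb3, which was next among those named, had a log2 fold change of -0.13. Other brakes on JAK and STAT signals, 11 phosphatases, PIAS proteins and adaptors, were all tested and had a median of -0.02. Ptprc, which encodes the phosphatase CD45, and Ptpn6, which encodes SHP-1, had log2 fold changes of 0.03 and -0.20. Usp18, a brake on interferon receptors, was at 13.2, 18 and 10.1 FPKM against 6.38, 10.8 and 6.14 and was called as lower in the blocked fit without replicate 3 (log2 fold change -0.82, limma adjusted p = 0.000424), as 4.38% of all features were. It is named because of that call, after its values were seen.

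The receptors, JAKs and STATs that SOCS proteins act on, 28 genes, were all tested and had a median of 0.08, with 10 higher and 8 lower in 3 of 3 pairs, against 22.6% and 22.9% of all features. Stat2 was the member with vectors apart, at 17.5, 16.5 and 19.7 FPKM in empty vector libraries and 14.8, 15.3 and 16.4 with Blimp-1 (log2 fold change -0.19), a separation in this direction that 2.36% of all features showed. Without replicate 3 the blocked fit called Il10ra, a chain of the IL-10 receptor, as lower and Il12rb2, a chain of the IL-12 receptor, as higher (log2 fold changes -0.43 and 0.34; limma adjusted p = 0.0078 and 0.0259). With 1 of 28 called in each direction, this list was near the shares of all features called lower and higher, 4.38% and 3.08%. Of 15 cytokines that induce SOCS genes, 11 were below 1 FPKM in every library, Il2, Il10 and Ifng among them, and 3 were tested. Osm, which encodes oncostatin M, had vectors that were barely apart, at 10.4, 12.0 and 23.7 FPKM against 8.93, 10.4 and 10.1 (log2 fold change -0.52). Without replicate 3 the blocked fit gave -0.19 (limma adjusted p = 0.142). It too was highest in empty vector replicate 3.

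Genes that STATs induce in T cells along with SOCS genes, 14 in number and all tested, had a median of -0.16, with 6 lower and 0 higher in 3 of 3 pairs, against 22.9% and 22.6% of all features. In 9 of the 14, empty vector replicate 3 was above both other empty vector libraries, as in 37.8% of all features. The vectors were apart for 3 of them, Lta, Pim1 and Pim2, all lower with Blimp-1, as for 2.36% of all features. Lta, which encodes lymphotoxin alpha, was at 23.3, 20.2 and 104 FPKM in empty vector libraries and at 19.86, 18.97 and 19.85 with Blimp-1 (log2 fold change -0.88), and without replicate 3 the blocked fit gave -0.15 (limma adjusted p = 0.228). Pim1, which encodes a survival kinase, was at 98.9, 99.7 and 162.8 FPKM against 87.2, 86.8 and 92.5 (log2 fold change -0.40), and without replicate 3 the blocked fit gave -0.19 (limma adjusted p = 0.0999). As in Socs1, the Blimp-1 values of both lay close together and the empty vector value of replicate 3 was far above the rest. Without replicate 3 the blocked fit called Pim2, another kinase gene of the Pim family, and Bcl2, a survival gene, as lower and Dusp5, a phosphatase gene, as higher (log2 fold changes -0.32, -0.43 and 0.40; limma adjusted p = 0.0191, 0.025 and 0.017), where 4.38% of all features were called lower and 3.08% higher. Over all 6 libraries the log2 fold changes of these 3 genes were -0.33, -0.69 and 0.23. These genes, Il10ra and Il12rb2 are named for those calls, after their values were seen.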

How the data were processed

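RNA was sequenced from 6 libraries, made from about 0.5 M cells and 2 ug of total RNA each and read for 50 cycles, per the labels' protocols. The authors deposited FPKM values per RefSeq transcript. CASAVA 1.8.2, Cufflinks 2.2, Partek 6.6 and build mm9 are named in the submitters' processing notes, with no role. The sources used here do not give the aligner, annotation release or strand setting.

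Rows with a symbol were summed per gene, named by accession in RefSeq (GRCm38.p6). Of 1138 rows without a symbol, 429 that matched a named gene were kept apart. Features at 1 FPKM or more in at least 3 libraries entered limma (version 3.58.1, R 4.3.3) as log2(FPKM + 1), which understates the change of low genes, with a mean-variance trend and Benjamini-Hochberg adjustment at 0.05. This was checked on simulated data in which libraries varied independently, so the check does not cover pairing by replicate number. P-values cover the spread between these libraries. Replicate numbers were taken to pair libraries, because libraries numbered 1, 2 and 3 deviated together from their vector's mean (r = 0.77, 0.79 and 0.69), so a blocked fit was added. Left with 2 pairs, the blocked fit has few residual degrees of freedom, and its SE rests largely on variance pooled over all features.

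Depth came from the lowest values and GENCODE lengths, so it is an estimate, and it was given no interval. The error given for estimated reads covers counting only. Lengths were known for 97.7% of tested features. Named genes were the members, up to 2 per list and direction with vectors apart (otherwise the 2 most abundant), and the 3 most alike for each member at a mean of 5 FPKM or more. Genes named for a call without replicate 3 were chosen after their values were seen. The members and lists were chosen with earlier results of these data known. Alternatives were other pseudocounts, filters, scalings and trends, the highest transcript only, each library left out and each pair left out of the blocked fit. The added Socs1 row was an alternative chosen after seeing the data.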

Additional observations from a re-analysis of the deposited data

How the results depend on the processing

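No SOCS family member passed without the block under any other pseudocount, filter, scaling, trend or library left out. Socs1 passed as lower (1 member) in the blocked fit without replicate 3 of both vectors, with or without the added row. The replicate block called 1 feature higher and 1 lower; without replicate 1, 2 or 3 of both vectors it called 1, 1 and 340 higher and 1, 3 and 483 lower, or 340 and 485 with the Socs1 row added, and the cause was not tested. Leaving out single libraries without the block gave 0 to 1 features higher and 0 lower. Signs turned for some members. Cish went to 0.13 without empty vector replicate 3 and 0.15 in the blocked fit without replicate 3 of both vectors. Socs2 went to 0.11 without empty vector replicate 3. Socs3 went to 0.052 without Blimp-1 replicate 3 and 0.042 in that blocked fit. Socs4 went to -0.055 without empty vector replicate 3 and -0.038 without Blimp-1 replicate 2. With single libraries left out, log2 fold changes ran from -0.93 to 0.13 for Cish, -1.38 to -0.51 for Socs1, -0.81 to 0.11 for Socs2, -0.23 to 0.05 for Socs3, -0.055 to 0.21 for Socs4 and 0.21 to 0.38 for Socs7. Socs5 and Socs6 kept their sign in all 17 alternatives run, and Socs5, Socs6 and Socs7 did not reach the filter of 5 FPKM. Scalings moved the median of all features by less than 0.1.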
